A study of Mus musculus with 170 samples.

Results

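The regulators of actin assembly and focal adhesion examined here are 40 genes of the 40549 in the transcript table of E9.5 mouse ventricles. They were listed by what their proteins do, with earlier results of these cells already known, so the counts below are a description of the list. The set holds 8 genes of the Arp2/3 complex, 8 of monomer binding and filament turnover, 4 that sever or cap filaments or are coronins, 3 ERM proteins, 3 of the Ena/VASP family, 7 LIM domain proteins, 4 of the focal adhesion plaque, and 3 non-muscle myosin or scaffold genes. All 40 had a row in the table and all 40 passed the filter on low values in the cells compared.

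Actin filaments grow from monomers that thymosins hold in reserve and profilins hand to the growing end. The Arp2/3 complex starts branches on existing filaments, Ena/VASP proteins and formins lengthen unbranched ones, and cofilin with its partners takes old filaments apart. At focal adhesions, talin and vinculin couple integrins to these filaments, and ERM proteins tie filaments to the plasma membrane. Embryonic cardiomyocytes use the same machinery while they assemble sarcomeres, whose own thin filaments are capped and stable.

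The question of the study was how the transcriptome of early heart cells changes when microRNA processing is lost. Control hearts, labelled wild type, carried Dgcr8 loxP/loxP and a Rosa26 mT/mG membrane reporter and had no Cre allele. Conditional knockout (cKO) hearts, labelled Mesp1Cre/+; Dgcr8-/-, had Cre at the Mesp1 locus, which acts in the mesoderm progenitors of the heart, and carried the same floxed alleles and reporter. Both genotypes were C57BL/6 at Embryonic day 9.5, and ventricle cells were picked by hand after trypsin and collagenase and sequenced with Smart-seq2. The labels name no embryo, so each genotype is 1 sample. No test was possible between genotypes, and every SD below describes scatter across cells. The only repeat of the comparison is the split into the 2 batches named in the sample titles.

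Of the 143 cells with values, 74 were control (35 from batch 1, 39 from batch 2) and 69 were cKO (35 and 34). Cells were grouped by 55 marker genes, none of them a member, and the cardiomyocyte-like cells are called CM-like: 27 control cells (19 and 8) and 66 cKO cells (33 and 33). In the CM-like cells, all 15 cardiomyocyte markers were detected in most cells of each genotype. The targeted gene Dgcr8 reached a TPM of 1 or more, the level taken here as detection, in 14 of 27 control and 21 of 66 cKO CM-like cells, so it did not separate the genotypes. A TPM for a whole gene also counts reads from outside a deleted stretch. Xist was detected in 0 of 27 control CM-like cells (an upper limit of 11.1%) and in 63 of 66 cKO ones, and the Y-linked Ddx3y in 18 of 27 and 0 of 66 (an upper limit of 4.55%). The sex of the embryos and the genotype therefore cannot be told apart, which bears on the X-linked members Tmsb4x and Msn.

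Promoter windows of 37 of the 40 members were found in RefSeq on GRCm38.p6, as 300 bases that run from 250 before to 50 after an annotated start. The window of Iqgap1, the member with the largest difference between genotypes, lies at chr7:80803282-80803581 on the minus strand. Csrp1, the LIM gene with the largest difference, had 2 windows on the plus strand, an upstream one at chr1:135719813-135720112 and a downstream one at chr1:135728917-135729216. They are shown because these members were called higher in all settings tried. On the same build GENCODE vM21 places Iqgap1 at chr7:80711583-80825974 and Csrp1 at chr1:135720061-135752232. The Iqgap1 start and the downstream Csrp1 start lie inside these genes, and the upstream Csrp1 window spans the first base of its gene. Capitals mark the GC box GGGCGG, the motif of Sp/KLF factors, searched on both strands: the Iqgap1 window held 4, the downstream Csrp1 window 1 and the upstream one 0.

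Iqgap1: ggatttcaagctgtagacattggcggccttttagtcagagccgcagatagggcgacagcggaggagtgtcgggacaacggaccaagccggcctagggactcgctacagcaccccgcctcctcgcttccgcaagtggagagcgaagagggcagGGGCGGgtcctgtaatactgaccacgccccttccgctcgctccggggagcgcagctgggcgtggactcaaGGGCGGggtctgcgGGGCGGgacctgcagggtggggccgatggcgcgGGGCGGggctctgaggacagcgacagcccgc
Csrp1, upstream: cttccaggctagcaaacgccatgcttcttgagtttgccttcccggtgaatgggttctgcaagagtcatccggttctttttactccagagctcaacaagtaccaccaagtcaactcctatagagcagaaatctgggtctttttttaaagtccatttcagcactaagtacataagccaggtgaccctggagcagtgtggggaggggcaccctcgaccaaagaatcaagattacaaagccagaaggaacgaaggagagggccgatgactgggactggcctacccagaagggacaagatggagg
Csrp1, downstream: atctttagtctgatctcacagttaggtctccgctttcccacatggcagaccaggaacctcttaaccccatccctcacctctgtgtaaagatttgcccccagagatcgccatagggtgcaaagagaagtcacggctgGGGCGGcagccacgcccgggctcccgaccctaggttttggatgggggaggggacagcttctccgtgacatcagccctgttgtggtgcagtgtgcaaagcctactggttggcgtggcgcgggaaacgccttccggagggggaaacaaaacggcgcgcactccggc

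Counting a gene when any of its windows matched, the GC box was present in 29 of 37 members and in 38.2% of all genes with a window. It was present in 8 of the 10 matched members that were higher in cKO cells by the rule given below, and in 21 of the 27 others. The CArG box, the site of serum response factor that is known from actin cytoskeleton promoters, was searched on both strands as well. It was found in 3 of 37 members, against 1.81% of all genes, and in 0 of those 10. The stretches around these boxes are shown with the box in capitals, because they mark the members with this motif. That of Arpc4 is chr6:113377863-113377897 (plus strand), that of Lima1 chr15:99820162-99820221 (minus strand) and that of Vcl chr14:20929148-20929205 (plus strand).

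Arpc4: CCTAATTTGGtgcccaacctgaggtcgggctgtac
Lima1: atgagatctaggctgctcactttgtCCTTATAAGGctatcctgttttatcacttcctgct
Vcl: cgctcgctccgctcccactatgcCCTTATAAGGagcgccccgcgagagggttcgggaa

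The TEAD motif GGAATG, on either strand, was held by 5 of 37 members and 16.6% of all genes. It was in 0 of the 10 matched members called higher and in 5 of the 27 others. No matches of 2 of these motifs overlapped in the 45 member windows, although the CArG box ends in letters with which the GC box begins. A match describes these letters only, and no match within a window says nothing of a factor that binds elsewhere.

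In CM-like cells, most members had more transcript in cKO than in control cells, and the difference was largest for the scaffold gene Iqgap1, the capping gene Capg and the LIM gene Csrp1, in this order. The difference of a gene is its mean log2(TPM + 1) over cKO cells minus that over control cells. TPM scales each gene by its transcript length and by the total of its cell, and the added 1 understates differences of genes at low levels. A gene is called higher or lower when the difference over both batches reaches 1 and has the same sign in each batch. By this rule 11 of the 40 members (27.5%) were higher, against 6.73% of all 15061 genes compared, and 1 (2.5%) was lower, against 5.85%. The other 28 were not called. The median difference of the members was 0.81, against 0.06 over all genes. By batch it was 0.82 against 0.17 in batch 1 and 0.24 against -0.17 in batch 2. The pooled values also carry differences between batches, because the control cells were split unequally between them. With the 2 batches weighted equally, the median was 0.60, against 0.01 over all genes, and 9 members were higher, against 5.84%. Pfn2, Wdr1, Pdlim7 and Tln1 then lost their call, and Pdlim5 and Myh10 gained one. Pooled, 32 of the 40 members were above 0, against 56.8% of all genes. In all, 24 members had a positive difference in both batches, against 31.0% of all genes. A negative one in both was seen for 2, against 24.8%, and 14 had opposite signs.

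Most members are widely detected, and such genes pass the rule more often. Among the 6559 genes detected in most of the control or most of the cKO CM-like cells, 12.8% were higher and 11.5% lower, while 10 of the 36 members in that set (27.8%) were higher and 0 lower. The 4 members outside it were Gsn, Capg, Lima1 and Pxn. The count of higher members moved with the settings, as did the share of all genes called higher. It was 5 after each cell was divided by a median-ratio factor (median difference 0.46), against 4.30% of all genes. It was also 5 when cells were clustered on 1000 variable genes without markers or members (median 0.38), against 5.48%. It was 18 in batch 1 alone, against 12.9% of all genes, and 9 in batch 2 alone, against 5.87%. With the tree of cells divided into 4 clusters it was 24, against 11.9% of all genes, and the median was 1.21. In that setting 10 cells led by mitochondrial transcripts joined the CM-like cells. They were 7 control and 3 cKO cells, with a median mitochondrial share of 54.0% in the control ones. Iqgap1 and Csrp1 kept their call in all 18 settings, Enah and Csrp2 in 16, Arpc5 in 15 and Actr3 in 13. Pfn2 kept it in 12, Pdlim7 in 11, and Wdr1 and Tln1 in 10. Some settings could not change a call: other filters, leaving out X-linked members, and 6 clusters, which gave the same CM-like cells. They left the difference of each gene they kept as it was. In a single batch the rule asked for the size of 1 only. The scaling also moved the balance over all genes: of all calls, 53.5% were higher with TPM as deposited and 36.0% with the median-ratio factor.

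**Figure D1:**
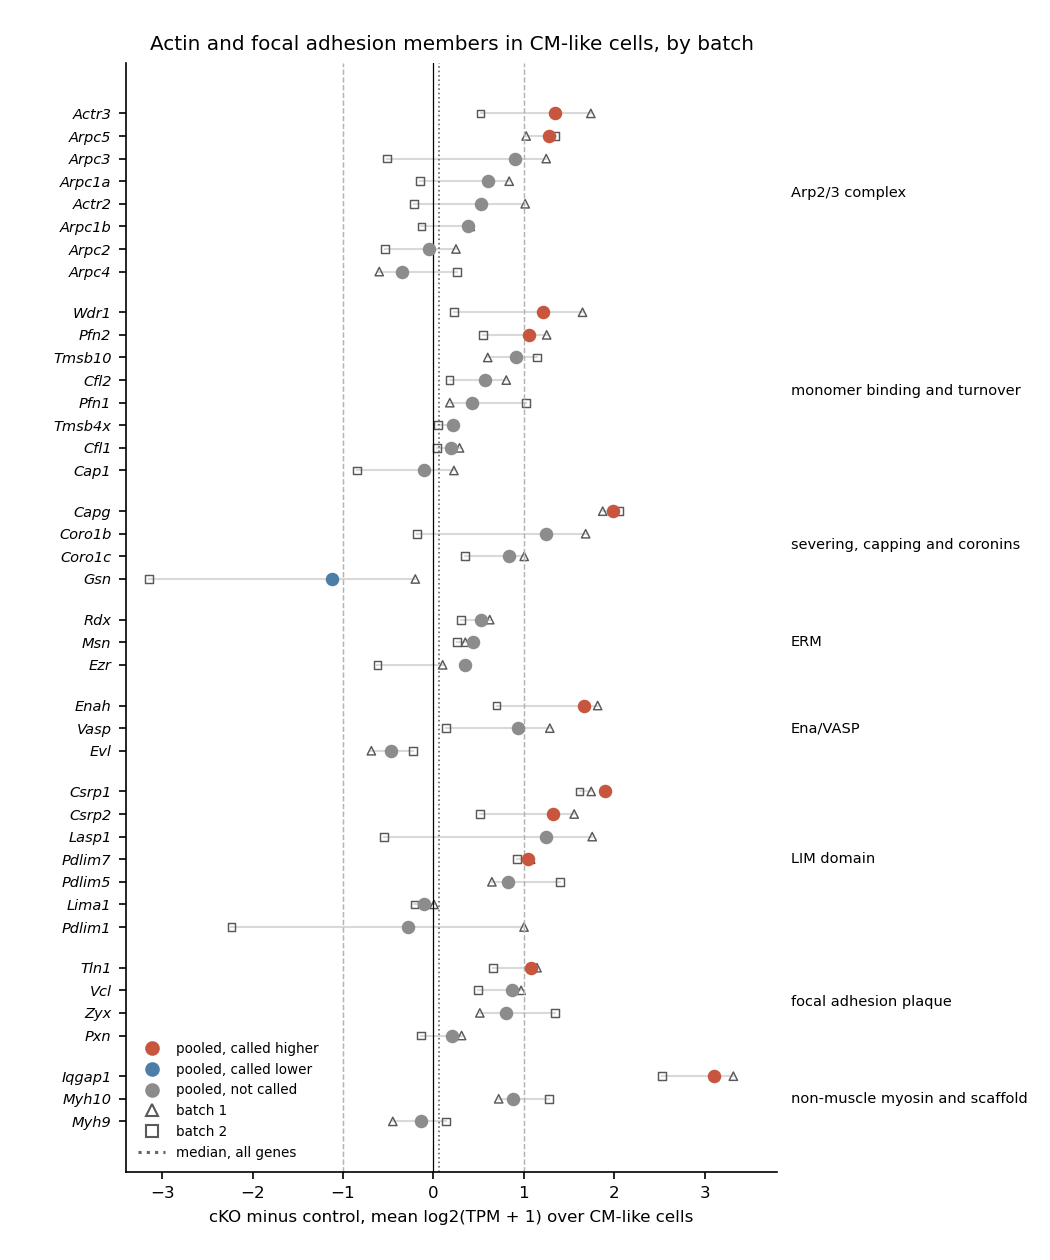
Difference of each of the 40 members between cKO and control CM-like cells (x axis, mean log2(TPM + 1) of cKO minus control), grouped by function (y axis). Filled circles are both batches pooled, coloured where called, triangles batch 1 and squares batch 2, dashed lines mark -1 and 1 and the dotted line the median of all genes (0.06). Iqgap1 stands farthest right at 3.10, Gsn farthest left at -1.12, and the 2 batches lie on opposite sides of 0 for 14 members.

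The non-muscle myosin and scaffold group held the largest difference. Iqgap1, a scaffold that binds actin filaments, calmodulin and the GTPases Rac and Cdc42, had a lowest, median and highest log2(TPM + 1) of 0.00, 2.19 and 4.31 over the 27 control cells and 0.13, 5.27 and 6.65 over the 66 cKO cells. The bulk of the cKO cells lay above the whole control range: 55 of 66 (83.3%, exact 95% interval 72.1 to 91.4%) exceeded every control cell. Its mean was 1.89 ± 1.47 (SD) in control and 4.99 ± 1.17 in cKO cells, a difference of 3.10 (3.32 in batch 1, 2.53 in batch 2), and it was called higher in all 18 alternative settings. Mean TPM was 4.85 and 38.6, and 31 of the 15061 genes had a larger difference. Myh10, the heavy chain of non-muscle myosin IIB, differed by 0.88 (0.72 in batch 1, 1.28 in batch 2) and was not called. Myh9, the heavy chain of non-muscle myosin IIA and the member with the lowest difference in the group, had a lowest, median and highest cell of 0.00, 2.80 and 7.33 in control and 0.00, 2.58 and 8.30 in cKO cells. These ranges overlapped, and its difference was -0.14 (-0.45 in batch 1, 0.13 in batch 2). Myh10 exceeded Myh9, on the TPM scale per transcript length, in 21 of 27 control and 63 of 66 cKO cells.

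The LIM domain proteins had the most calls, 3 of 7, with a group median of 1.05. Csrp1, a cysteine-rich LIM protein of smooth muscle and early heart that binds alpha-actinin and zyxin, ran from a lowest cell of 0.00 over a median of 4.12 to 7.61 in control cells and 0.00, 5.79 and 8.69 in cKO cells. The ranges overlapped almost wholly, while the transcript was detected in a larger share of cKO cells: 17 of 27 control (63.0%, exact 95% interval 42.4 to 80.6%) and 56 of 66 cKO cells (84.8%, 73.9 to 92.5%). Its difference was 1.89 (1.75 in batch 1, 1.62 in batch 2), called in all 18 settings. Both batch values were below the pooled one, as the control cells were split 19 and 8 between batches and the cKO cells 33 and 33. Csrp2, its close relative, was at a higher level and differed by 1.32 (1.56 in batch 1, 0.52 in batch 2), from 7.22 ± 1.78 to 8.54 ± 1.88. Csrp2 exceeded Csrp1 in 26 of 27 control and 61 of 66 cKO cells. Pdlim7, a PDZ-LIM protein of the Z-disc and stress fibres, was the most abundant LIM member, with a difference of 1.05 (1.08 in batch 1, 0.92 in batch 2). Of the cKO cells, 34 of 66 exceeded every control cell.

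Pdlim5, another Z-disc PDZ-LIM protein, differed by 0.83 (0.65 in batch 1, 1.40 in batch 2) and missed the size of 1. Lasp1, a LIM and SH3 protein of membrane ruffles, differed by 1.24 (1.76 in batch 1, -0.55 in batch 2), so its sign was not shared by the batches. Lima1, which stabilizes filaments, was near the floor of the scale, with means of 0.60 and 0.49, and differed by -0.10 (0.01 in batch 1, -0.21 in batch 2). Pdlim1, which binds alpha-actinin and had the lowest difference of the group, had a lowest, median and highest cell of 0.90, 7.48 and 9.59 in control and 0.00, 7.77 and 9.87 in cKO cells. Its pooled value of -0.28 joined opposite values, 1.00 in batch 1 and -2.23 in batch 2, and it was the only member to reach 1 in each batch with opposite signs. In batch 2, all 8 control cells were at 6.67 or above, while the cKO cells reached down to 0.00.

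Of the genes that sever or cap filaments, Capg was higher and Gsn lower. Capg (chr6:72544391-72562983), which caps the growing end without severing, had a lowest, median and highest cell of 0.00, 0.00 and 6.77 in control and 0.00, 0.22 and 8.09 in cKO cells. Most cells of either genotype had little or none. It was detected in 4 of 27 control cells (14.8%, exact 95% interval 4.19 to 33.7%) and 29 of 66 cKO cells (43.9%, 31.7 to 56.7%), with a difference of 1.98 (1.87 in batch 1, 2.05 in batch 2). It was called in 16 of the 17 settings that kept it and lost in the one that took the median over cells. Gsn (gelsolin, chr2:35256380-35307892), which severs and caps filaments, had a lowest, median and highest cell of 0.00, 0.68 and 6.89 in control and 0.00, 0.00 and 6.93 in cKO cells. It was the 1 member called lower, with a difference of -1.12 (-0.20 in batch 1, -3.14 in batch 2), and nearly all of that came from batch 2, where 7 of 8 control and 6 of 33 cKO cells had it. In batch 1 these counts were 6 of 19 and 8 of 33. The call therefore rests on the 8 control cells of batch 2, and it held in 9 of the 17 settings that kept the gene. Coro1b and Coro1c, coronins that help to turn over Arp2/3 branches, differed by 1.25 (1.68 in batch 1, -0.18 in batch 2) and 0.84 (1.00 in batch 1, 0.35 in batch 2). Neither was called, Coro1b for its sign in batch 2.

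**Figure D2:**
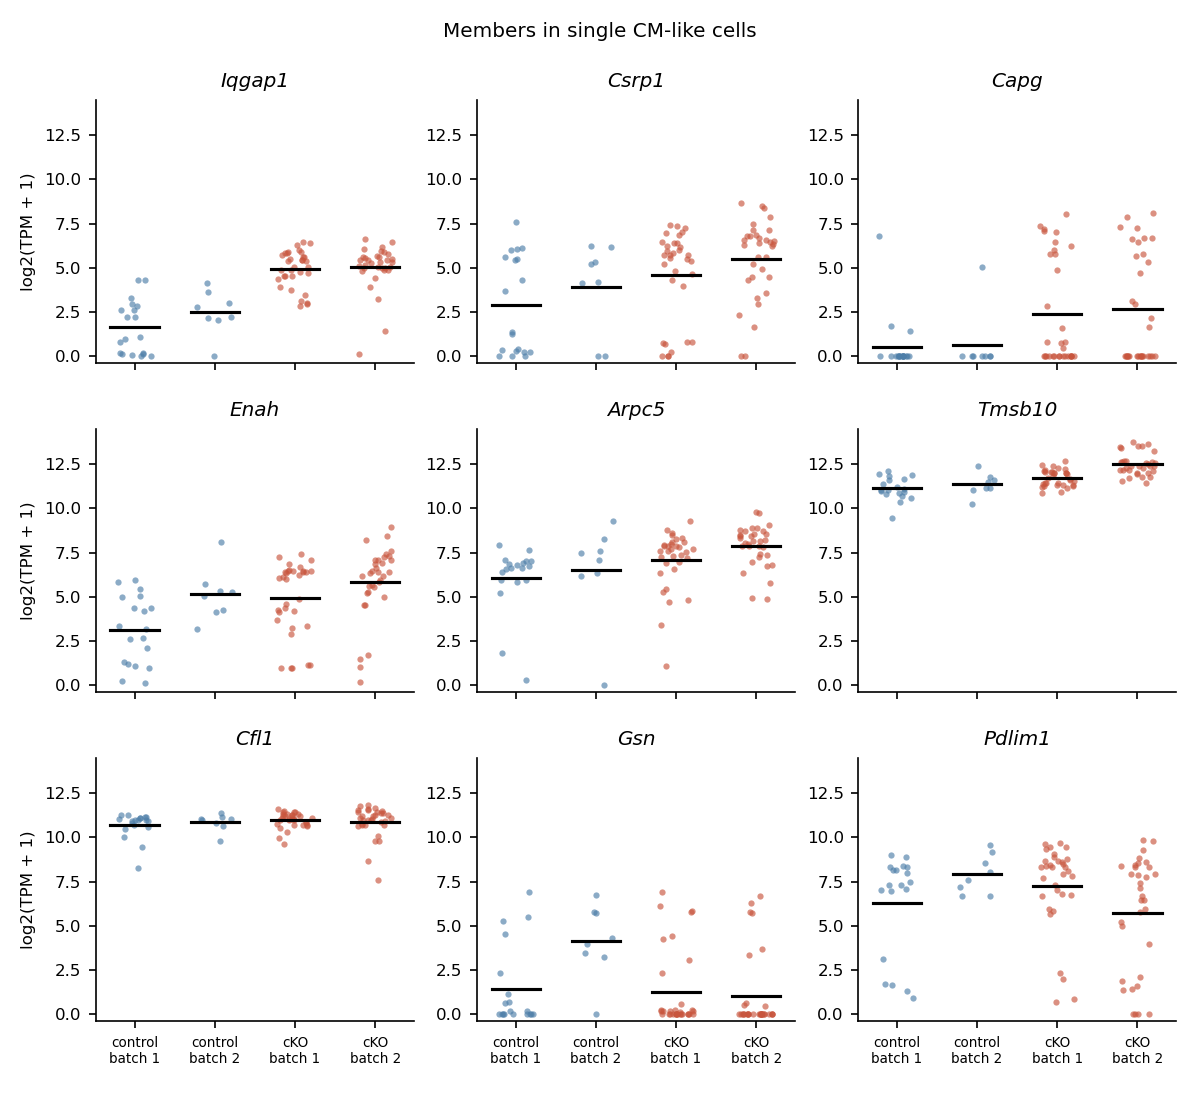
Levels of 9 members in single CM-like cells (y axis, log2(TPM + 1)), by genotype and batch (x axis), control in blue and cKO in red. Each point is 1 cell and each bar the mean of its column. Most cKO points of Iqgap1 lie above the highest control cell at 4.31, Capg and Gsn split into cells with and without the transcript, and Cfl1 lies near 10.75 in control and 10.94 in cKO cells.

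In the Ena/VASP family, Enah (Mena), which lengthens filaments and is known from intercalated discs, was higher by 1.67 (1.82 in batch 1, 0.70 in batch 2). Its lowest, median and highest cell was 0.12, 4.17 and 8.13 in control and 0.16, 6.19 and 8.93 in cKO cells. The ranges overlapped, and 52 of 66 cKO cells exceeded the control median. Vasp, which gave the family its name and sits at adhesions, was 0.94 (1.29 in batch 1, 0.14 in batch 2) and missed the size of 1. Evl, the third family member, had 0.00, 3.01 and 6.91 in control and 0.00, 1.14 and 5.65 in cKO cells, and its negative difference of -0.47 (-0.69 in batch 1, -0.22 in batch 2) was under the size of a call.

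Of the 8 Arp2/3 genes, 2 were called higher, Actr3 and Arpc5. Actr3 encodes Arp3, which with Arp2 forms the template of a new filament, and had a lowest, median and highest cell of 0.89, 7.25 and 8.48 in control and 1.01, 7.93 and 9.55 in cKO cells. The cells of the 2 genotypes overlapped, with 8 of 66 cKO cells above every control cell, and the difference was 1.34 (1.74 in batch 1, 0.52 in batch 2). Arpc5, a small subunit, differed by 1.28 (1.03 in batch 1, 1.35 in batch 2). None of the remaining subunits was called. Arpc3 was 0.91 (1.25 in batch 1, -0.52 in batch 2), Arpc1a 0.61 (0.84 in batch 1, -0.15 in batch 2) and Actr2, which encodes Arp2, 0.53 (1.02 in batch 1, -0.21 in batch 2), each with opposite signs in the 2 batches. Arpc1b was 0.38 (0.41 in batch 1, -0.13 in batch 2) and Arpc2 -0.04 (0.25 in batch 1, -0.53 in batch 2). Arpc2 and Arpc4 form the core of the complex. Arpc4, which had the lowest difference, ran through 0.00, 7.04 and 8.45 in control and 0.00, 6.91 and 8.80 in cKO cells, with a difference of -0.35 (-0.60 in batch 1, 0.26 in batch 2). The median of the complex was 0.57 over both batches, 0.93 in batch 1 and -0.14 in batch 2, so its sign turned between batches. Of the interchangeable subunits Arpc1a and Arpc1b, Arpc1a was the higher one in 20 of 27 control and 54 of 66 cKO cells.

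The genes of monomer binding and turnover include the most abundant members. Tmsb10 and Tmsb4x (thymosins), Pfn1 (profilin 1) and Cfl1 (cofilin 1) held 72.7% of the summed TPM of the 40 members in control and 70.8% in cKO CM-like cells. None of these 4 was called. Tmsb10 came closest, from 11.20 ± 0.64 to 12.12 ± 0.67, a difference of 0.92 (0.60 in batch 1, 1.14 in batch 2), and 64 of 66 cKO cells exceeded the control median. In mean TPM it went from 2569.8 to 4994, which was 47.3% of the whole gain of the 40 members. The X-linked Tmsb4x differed by 0.21 (0.22 in batch 1, 0.05 in batch 2), Pfn1 by 0.42 (0.18 in batch 1, 1.02 in batch 2) and Cfl1 by 0.20 (0.29 in batch 1, 0.04 in batch 2). Tmsb10 exceeded Tmsb4x in 27 of 27 control and 64 of 66 cKO cells. The 2 called members, Wdr1 and Pfn2, were at lower levels. Wdr1, which speeds disassembly by cofilin, had a lowest, median and highest cell of 0.61, 6.39 and 8.37 in control and 0.79, 7.29 and 8.83 in cKO cells and a difference of 1.21 (1.65 in batch 1, 0.22 in batch 2), mostly from batch 1. Pfn2, the profilin known from neurons, was detected in 14 of 27 and 41 of 66 cells and was higher by 1.06 (1.25 in batch 1, 0.55 in batch 2). Pfn1 exceeded Pfn2 in every CM-like cell, and Cfl1 exceeded Cfl2, the muscle cofilin, in every one too. Cfl2 differed by 0.57 (0.81 in batch 1, 0.18 in batch 2). Cap1, which recycles monomers and had the lowest difference of the group, had cells at 0.00, 4.45 and 6.92 in control and 0.00, 4.46 and 6.87 in cKO cells, nearly the same range, and differed by -0.11 (0.23 in batch 1, -0.84 in batch 2).

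In the focal adhesion plaque, Tln1 (talin 1), which links integrins to actin, was called higher by 1.08 (1.15 in batch 1, 0.66 in batch 2). Its lowest, median and highest cell was 0.00, 4.33 and 6.15 in control and 0.16, 5.11 and 8.19 in cKO cells, and 13 of 66 cKO cells exceeded every control cell. Vcl (vinculin), which reinforces that link, differed by 0.87 (0.97 in batch 1, 0.50 in batch 2), and Zyx (zyxin), a LIM protein of tensed adhesions, by 0.80 (0.51 in batch 1, 1.34 in batch 2). Both were positive in each batch and under the size of a call. Pxn (paxillin), an adaptor for signalling at adhesions, was hardly detected, in 3 of 27 and 9 of 66 cells, with 0.00, 0.00 and 3.42 in control and 0.00, 0.00 and 4.81 in cKO cells. Its difference was 0.20 (0.31 in batch 1, -0.14 in batch 2), under the size of a call. A lower level of Pxn in cKO cells could not be seen so near the floor.

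None of the 3 ERM genes was called. Rdx (radixin) had a lowest, median and highest cell of 0.63, 5.96 and 7.29 in control and 0.00, 6.34 and 8.54 in cKO cells and a difference of 0.52 (0.62 in batch 1, 0.30 in batch 2). Msn (moesin), which is X-linked, was 0.43 (0.35 in batch 1, 0.26 in batch 2). Ezr (ezrin), with the lowest difference of the 3, ran through 0.00, 4.28 and 6.95 in control and 0.00, 4.68 and 7.50 in cKO cells, with a difference of 0.35 (0.10 in batch 1, -0.62 in batch 2). For each of the 3 genes the ranges overlapped across most of their length. The pooled values of Msn and Ezr lay above both of their batch values. For Ezr the control mean was 2.64 in batch 1 and 5.63 in batch 2, and control cells came mostly from batch 1. Its pooled value is therefore no sign of a higher level in cKO cells.

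Cell by cell, the mean log2(TPM + 1) of the 40 members was 4.95 ± 0.98 (SD) in control CM-like cells, with a lowest, median and highest cell of 2.98, 5.12 and 6.37. In cKO cells it was 5.66 ± 0.84, with 2.27, 5.82 and 6.81. The ranges overlapped: 10 of 66 cKO cells (15.2%, exact 95% interval 7.51 to 26.1%) exceeded every control cell. By batch the means were 4.72 and 5.55 in batch 1, and 5.51 and 5.77 in batch 2. The members together took 1.05 ± 0.217% (SD) of all TPM in control and 1.56 ± 0.389% in cKO cells, and this share was higher in cKO cells in batch 1 (1.02 and 1.37%) and in batch 2 (1.12 and 1.75%).

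The number of genes detected in a cell moved with these values, and its part in the result was not tested. The file keeps no read depth, so the number of genes with TPM above 0 was used in its place. The median was 8458 in control and 9845 in cKO CM-like cells of batch 1, and 9704 and 7786 in batch 2, so the order of the genotypes turned between batches. Across cells, the member mean was correlated with detected genes, with a Spearman correlation of 0.83 over 27 control and 0.22 over 66 cKO cells, which share library and depth between both axes. In cells with 7000 to 11000 detected genes, the mean was 4.74 in 17 control and 5.67 in 30 cKO cells of batch 1, and 5.79 in 6 and 6.10 in 26 cells of batch 2. Within that window, 13 members were called higher, against 7.90% of all genes, and 0 lower, against 5.44%. The share of mitochondrial transcripts was lower in cKO cells, with a median of 2.95% against 6.30% in control cells. Without the 4 control and 5 cKO cells above 10%, the median difference of the members was 0.51. Then 8 were called higher, against 5.57% of all genes, so the pooled values rest in part on these cells. Over the 780 pairs of members, the median Spearman correlation across cells was 0.17 in control and 0.12 in cKO cells, weak values in sparse data.

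**Figure D3:**
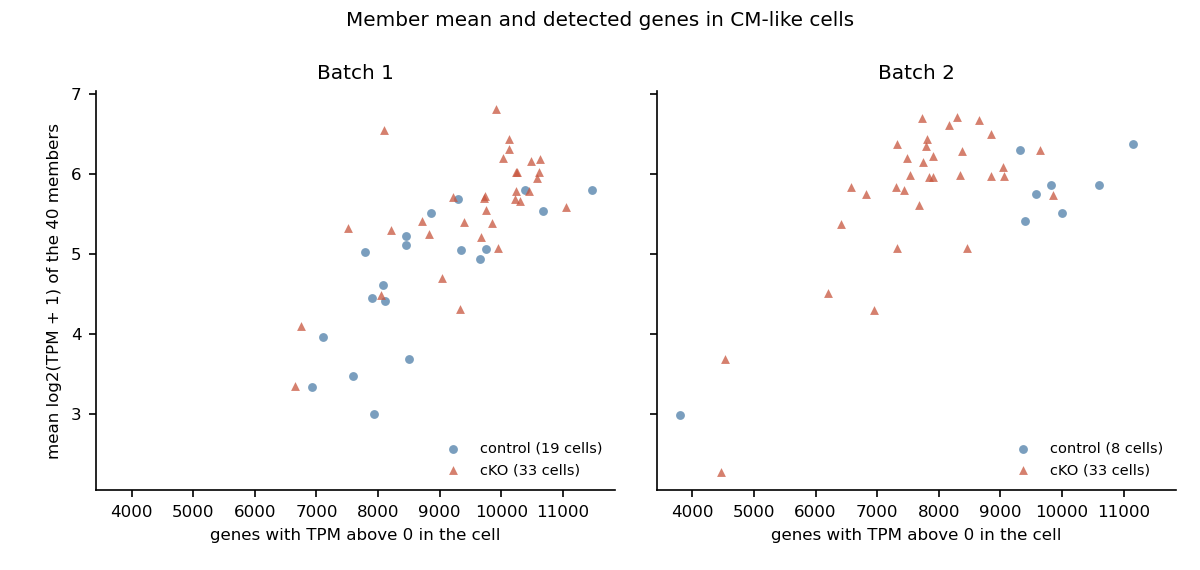
Mean log2(TPM + 1) of the 40 members (y axis) against the number of genes with TPM above 0 (x axis), 1 point per CM-like cell, in batch 1 (left) and batch 2 (right), control as blue circles and cKO as red triangles. In batch 2 most cKO cells lie left of the control cells, with medians of 7786 and 9704 detected genes, at a similar or higher member mean.

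Among control cells, most members had a lower mean in the CM-like class than in the endothelial-like class, and likewise than in a cluster with epicardial and mesenchymal markers. The classes were made from markers of the same cells, so these levels are a description. Of the 40 members, 22 (55%) were higher in the 22 endothelial-like cells than in the 27 CM-like cells by the same rule, against 20.5% of 13130 genes, and 3 were lower, against 8.11%. The median difference was 1.33, and 0.29 over all genes. That cluster, of 13 control cells and left without a cell type name, had 21 of 39 members higher than CM-like cells (53.8%), against 19.4% of 11909 genes, and 4 lower, against 7.73%. The median was 1.22, and 0.29 over all genes. All TPM of the members summed to 2.11% of the total in endothelial-like cells and 2.11% in the epicardial-mesenchymal cluster, about the same value in both, against 1.05% in CM-like control cells, while erythroid-like cells (n = 5 cells, batch 2 alone) were below the CM-like ones with 0.884%.

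Msn had the largest gap of the members called in endothelial-like cells, with a mean of 7.95 there and 3.90 in CM-like control cells. Arpc1b (7.16 and 3.44), Iqgap1 (5.61 and 1.89) and Lima1 (4.27 and 0.60) followed, and 7 of the 8 Arp2/3 genes were higher in endothelial-like cells. The order of the Arpc1 subunits differed between classes. Arpc1a exceeded Arpc1b in most CM-like cells, while in endothelial-like cells Arpc1b was the higher one in 13 of 22. Ezr went the other way from Msn. It had 2.04 in endothelial-like, 3.53 in CM-like and 6.29 in the epicardial-mesenchymal cells, where it was called higher. A few members were called lower outside CM-like cells. Gsn was called lower in endothelial-like cells (0.24, against 2.24 in CM-like cells) and not in the cluster (2.54), and Evl was called lower in the cluster (1.53, against 2.54) and not in endothelial-like cells (2.55). Pdlim5 was at 6.86 in CM-like cells and 3.34 and 3.47 in the other 2 classes, and Csrp2 at 7.22, 5.00 and 3.39. Csrp1 was highest in the epicardial-mesenchymal cells (5.67), so that the order of Csrp1 and Csrp2 there was the reverse of that in CM-like cells in 10 of 13 cells. Pdlim7 had 8.35 in CM-like cells and 6.76 in that cluster, and was called lower there. Enah, Pdlim5, Pdlim7 and Csrp2 were the 4 members with their highest control mean in CM-like cells, while 17 had it in endothelial-like cells, 18 in the epicardial-mesenchymal cluster and 1, Tln1, in erythroid-like cells.

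Set beside these control classes, the mean of cKO CM-like cells lay between those of CM-like control and endothelial-like cells for some members called higher. They were Iqgap1 (4.99), Wdr1 (6.91, with 7.38 in endothelial-like cells), Arpc5 (7.49 and 8.00), Actr3 (7.66 and 8.03) and Capg (2.54 and 3.43). Csrp1 (5.06) and Pfn2 (3.44), also called higher, lay further from the lower endothelial-like levels (2.27 and 1.54) than CM-like control cells did. Both were below the epicardial-mesenchymal cluster (5.67 and 4.24). For Csrp2 (8.54), Pdlim7 (9.40), Enah (5.37) and Pdlim5 (7.69), the control mean was highest in CM-like cells. Their cKO mean lay above all 4 control classes, further from the endothelial-like level than CM-like control cells were. Neither Pdlim7 nor Enah was called between endothelial-like and CM-like control cells. Enah was nearly level in CM-like control cells (3.70) and the epicardial-mesenchymal cluster (3.65). Tln1 (4.85) was the only other member above all 4 control classes, beside 4.78 in erythroid-like cells. Its cKO mean was nearer to the endothelial-like level (4.42) than that of CM-like control cells (3.77) was. Of the members with the largest gap between endothelial-like and CM-like control cells, Msn, Lima1 and Arpc1b were at 4.33, 0.49 and 3.81 in cKO CM-like cells. These comparisons share the CM-like control cells, so the values are given side by side only. Of the 13 endothelial markers, 0 were called between the genotypes in CM-like cells, against 6.73% of all genes higher and 5.85% lower. Their mean log2(TPM + 1) was 0.76 (range 0.11 to 1.75) in control and 0.78 (0.18 to 1.85) in cKO cells. The largest differences were 0.87 for Pecam1 (0.63 in batch 1, 0.95 in batch 2) and -0.84 for Icam2 (-0.56 in batch 1, -1.41 in batch 2). Both were under the size of a call. The paper lists Pecam1 among genes raised in single cKO cardiomyocytes, by a rank-sum test and a smaller limit on fold change than here. In each genotype 2 of the 13 were detected in most cells, and most of the others were too near the floor for a lower call. The CM-like cells were also grouped by these markers.

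**Figure D4:**
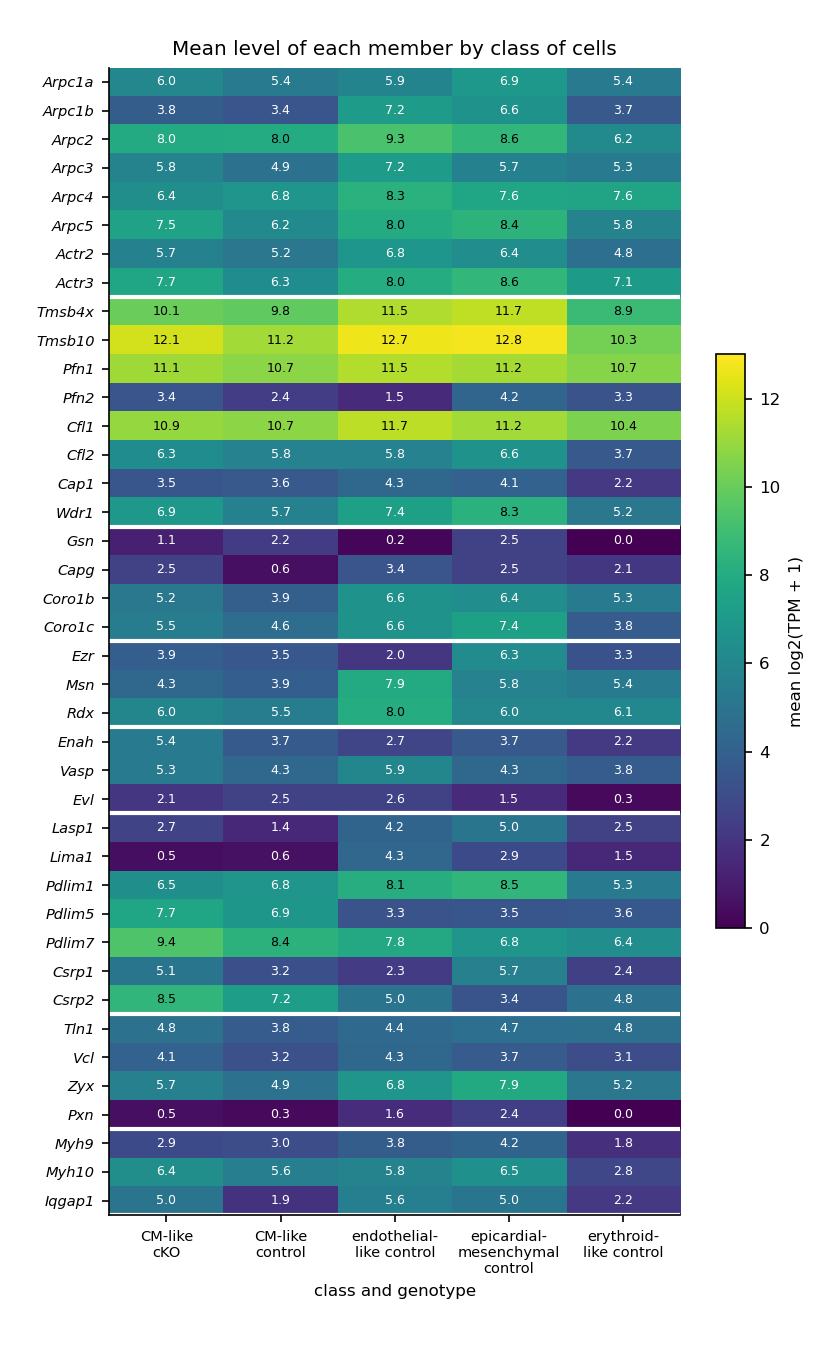
Mean log2(TPM + 1) of each member (rows, in the order of the functional groups, which white lines part) in cKO CM-like cells and in 4 classes of control cells (columns), with the value printed in each field and coloured from 0 to 13. Thymosins, Pfn1 and Cfl1 are bright in all classes, Iqgap1 is dark in CM-like control cells (1.89) and not in cKO ones (4.99), and Pdlim5 and Csrp2 are brightest in the CM-like columns.

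Over all cells, without regard to class, 7 members (17.5%) were higher in cKO, against 6.00% of 16659 genes, and 3 (7.5%) lower, against 5.77%, with a median of 0.23 against -0.03. The make-up of the genotypes differed: CM-like cells were 66 of 69 cKO cells and 27 of 74 control cells, and the endothelial-like and epicardial-mesenchymal cells were all control. The higher members were Enah, Pdlim5, Pdlim7, Csrp1, Csrp2, Myh10 and Iqgap1, of which Pdlim5 differed most (3.20, against 0.83 in CM-like cells). The lower ones were Arpc1b (-1.31), Msn (-1.11) and Lima1 (-1.64), each higher in the other control classes than in CM-like cells and not called within CM-like cells. The median of the members turned below 0 when the ratio of mean TPM was used (-0.03) and in batch 2 alone (-0.05).

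The wider pathway was read from 113 further genes in 7 lists, of which 103 passed the filter in CM-like cells. By the same rule 28 were higher (27.2%), against 6.73% of all genes, and 4 lower (3.88%), against 5.85%. The median difference was 0.47, against 0.06 over all genes. Among widely detected genes 12.8% were higher. Among 6 of these lists, higher genes were 2 of 11 formins, 3 of 13 activators of Arp2/3, 4 of 21 genes of capping, bundling and disassembly, 6 of 16 other LIM proteins, 5 of 17 adhesion adaptors and kinases, and 5 of 12 non-muscle myosin light chains and partners. Of these 6 small lists, the formins (18.2%) and the genes of capping, bundling and disassembly (19.0%) came nearest to the share of widely detected genes. That share is no close match for the formins, of which 3 were detected in most control and 3 in most cKO cells. The lower genes were 1 activator, 1 adhesion adaptor and 2 in the list of capping, bundling and disassembly. Among the 5 with the largest positive difference were Rhob, a GTPase of endosomes and stress fibres, at 2.88 (2.16 in batch 1, 3.52 in batch 2), Rhoc, its relative that drives contractile bundles, at 2.75 (2.79 in batch 1, 2.58 in batch 2), Lpp, a zyxin relative at adhesions, at 2.52 (2.11 in batch 1, 3.26 in batch 2), and Flii, of the gelsolin family, at 1.91 (2.42 in batch 1, 0.73 in batch 2). Rhob, Rhoc and Lpp were called higher in all 18 settings and Flii in 16. The 4 lower genes were Actr3b, Tln2, Brk1 and Arpc5l. Brk1, a small subunit of the WAVE complex, differed by -1.28 (-1.01 in batch 1, -1.70 in batch 2).

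The other 3 lower genes are relatives of members that were called higher, a pairing picked after the values were seen. Actr3b encodes a second Arp3, Arpc5l a second form of the Arpc5 subunit, and Tln2 the talin of striated muscle. Actr3b had a lowest, median and highest cell of 0.00, 3.26 and 6.92 in control and 0.00, 0.00 and 7.59 in cKO cells. It was detected in 14 of 27 and 7 of 66 cells, and differed by -2.13 (-1.70 in batch 1, -2.83 in batch 2), against 1.34 for Actr3. Arpc5l differed by -1.01 (-1.04 in batch 1, -0.86 in batch 2), against 1.28 for Arpc5, with a lowest, median and highest cell of 0.00, 5.22 and 8.07 in control and 0.00, 3.99 and 8.62 in cKO cells. Tln2 differed by -1.62 (-0.95 in batch 1, -2.42 in batch 2), against 1.08 for Tln1, with 22 of 27 control cells positive and 18 of 66 cKO cells. As a share of the summed TPM of the pair, Actr3b went from 13.8 to 2.31%, Arpc5l from 31.2 to 12.4% and Tln2 from 27.7 to 6.97%. Each share was lower in cKO cells in both batches, from 26.0 to 15.1% for Tln2 in batch 1 and from 30.6 to 1.28% in batch 2. Reads shared by such relatives can be split between them when abundance is estimated, which was not tested.

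**Figure D5:**
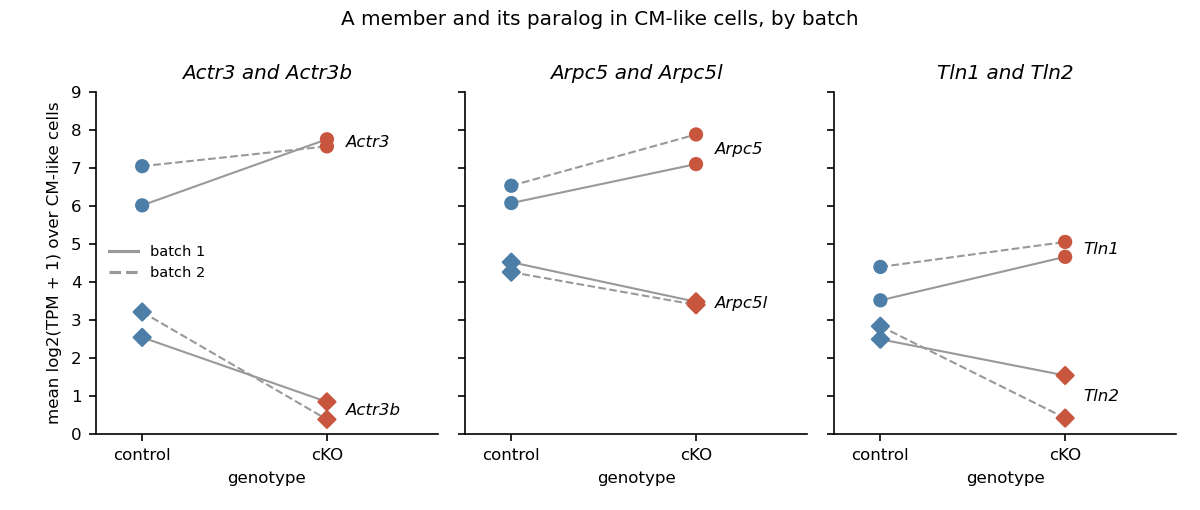
Mean log2(TPM + 1) over CM-like cells (y axis) of a member (circles) and its relative (diamonds) in control and cKO cells (x axis), with solid lines for batch 1 and dashed lines for batch 2. In all 3 pairs the member's lines go up and the relative's go down in both batches, least for Actr3 in batch 2 (0.52).

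Other values that differed or not between the CM-like cells of the 2 genotypes stand beside these counts, and their part in the results was not tested. The mean level (and range over cells) of 14 mesenchymal markers was 0.71 (0.20 to 2.14) in control and 0.93 (0.29 to 1.85) in cKO cells, that of 6 epicardial markers 0.95 (0.06 to 5.00) and 1.01 (0.00 to 2.98), and that of 7 erythroid markers 0.73 (0.00 to 3.41) and 0.93 (0.00 to 3.18). Of these, 1 mesenchymal marker was called, higher. Listed at 0 in every cell were 1 mesenchymal marker in control and 2 in cKO cells. A further setting left out the 6 control and 18 cKO cells in which a class other than cardiomyocytes had a mean marker level above 2. In it 14 members were called higher, against 11.0% of all genes, and 0 lower, against 3.73%. Of 11 immediate early and stress genes that dissociation is known to induce, 3 were higher (Jun, Jund and Atf3) and 2 lower (Junb and Zfp36). Of the 15 cardiomyocyte markers, 2 were higher and 1 lower. Over all genes compared, 6.73% were higher and 5.85% lower.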

How the data were processed

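Ventricle cells of control and cKO embryos were sequenced one by one, and the deposited file gives TPM per gene, estimated by the authors with Salmon on mm10. The Salmon version and the annotation are not given in the sources used here. TPM keeps no read depth, so its precision per cell is unknown. The methods kept cells with a high mapping rate. Of 170 labelled cells, 27 had no column and were not analysed here. All 143 others entered, with genotype and batch from the labels.

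TPM was used as log2(TPM + 1). Cells were clustered (Ward, 5 clusters) on z-scores of 55 markers, and a cluster was named where its markers exceeded the other cells by 1 on that scale. The study also used the members Rdx and Tmsb4x as markers. They were left out here. No doublet caller was run on these hand-picked cells. Genes with TPM above 0 in more than 10 cells of the classes compared were kept, and detection meant a TPM of at least 1. In each functional group the members with the highest and the lowest difference got their cell ranges, fixed pairs of relatives were set side by side, and of the other pathway genes the 5 highest and 5 lowest called ones were named (4 were lower). The count of 1 pathway list and 1 of the 5 highest genes are not reported here. Exact 95% intervals and limits for a count of 0 (3 cells) cover counting error only. No test was run. The 40 members, the lists and the rules were chosen with earlier results of these data known. Python 3.11.15, pandas 2.3.3 and scipy 1.17.1 were used, and the scripts were tested on simulated data. The alternatives were other pseudocounts, filters, averages, batches, clusterings, scalings and sets of cells.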

Additional observations from a re-analysis of the deposited data

How the results depend on the processing

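No paired analysis was possible because replicate numbers in these labels name individual cells, and nothing here was tested. In the CM-like cells, 18 alternatives were run, 2 of them chosen after seeing the data (without cells above a mitochondrial share of 10%, and without cells in which another class had a mean marker level above 2). None turned the direction of a called result. Settings that left the differences unchanged could not do so, nor could a single batch, as a call needs the same sign in both. The median difference of the members ran from 0.24 to 1.21, and it was 0.24 in batch 2 alone, 0.38 with 1000 variable genes (24 control and 61 cKO cells), 0.51 below the mitochondrial limit and 1.21 with 4 clusters. The count of higher members, with the share of all genes in brackets, was 7 with medians over cells (6.45%) and 18 in batch 1 alone (12.9%). It was 24 with 4 clusters (11.9%), and 5 with variable genes (5.48%) and with the median-ratio factor (4.30%). The lower count of 1 went to 0 with a pseudocount of 10, a TPM of at least 1, the ratio of mean TPM, batch 1 alone, 4 clusters, the median-ratio factor, 7000 to 11000 detected genes, and without cells holding other markers. It went to 2 in batch 2 alone, where 20.8% of all genes were lower. In all cells the median was -0.03 with the ratio of mean TPM. For endothelial-like against CM-like control cells it was 1.95 with 4 clusters and 0.71 with the median-ratio factor, and for the epicardial-mesenchymal cluster 1.43 and 0.77 with pseudocounts of 0.1 and 10, 0.95 in batch 2 alone, 1.86 with 4 clusters and 0.79 with the median-ratio factor. The cause of these shifts was not tested, except that some settings hold fewer cells or genes by construction. The share of all calls that were higher was 53.5%, and 36.0% with the median-ratio factor, 77.5% with the ratio of mean TPM, 77.4% in batch 1, 22.0% in batch 2 and 83.9% with 4 clusters. The median over all genes shifted by 0.14 with the ratio of mean TPM, 0.11 in batch 1, -0.23 in batch 2 and 0.11 with 4 clusters. Of the 28 uncalled members, 16 were called in some alternative. With 1 sample per genotype, unknown read depth and sex that differs with genotype, no difference here has a check across embryos.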
